A study of Mus musculus with 4 samples.

Results

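TGFb was added to activated CD4+ T cells that also received IL6, and the question was how the difference between regulatory T cells (Treg) and T-effector cells then changed. The comparison covers 7 of the 13 arrays in the series. On each array, Treg RNA and T-effector RNA were hybridised together in opposite dyes, so 1 array gives 1 log2 ratio of Treg over T-effector per gene, called the ratio here. All cells were CD4+ cells from mouse lymph node grown for 4 days on plates coated with anti-CD3 at 1 ug/ml, with 100 units/ml of IL2 for 3 days. In the 4 arrays of TGFb with IL6, the cells also received TGFb at 4 ng/ml and IL6 at 25 ng/ml. In the 3 arrays of IL6, they received the same IL6 without TGFb. The other 6 arrays, 3 of TGFb without IL6 and 3 of IL2 alone, entered the fits only to help estimate the spread and the dye effect. How Treg and T-effector cells were separated, the mouse strain and age, and whether the arrays came from separate cultures or animals are not given in the sources used here. The p-values thus speak for the variation among these arrays alone, and that variation may be technical.

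Treg are CD4+ T cells that restrain other lymphocytes and are defined by the transcription factor Foxp3. TGFb signals through Smad proteins and can induce Foxp3 in activated CD4+ cells, whereas TGFb together with IL6, which signals through gp130 and Stat3, favours the Th17 programme of IL17-producing helper cells. Ikzf2 encodes Helios, an Ikaros family factor typical of thymus-derived Treg. Socs3 is a feedback inhibitor of gp130 signalling, and Ctla4 is an inhibitory receptor that competes with CD28 for its ligands.

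Labels and arrays were examined first. Foxp3 had ratios of 2.71, 1.98, 2.06 and 1.87 on the arrays of TGFb with IL6, against 2.29, 2.57 and 1.72 on the arrays of IL6. It was thus higher in Treg than in T-effector on all 7 arrays, as the cell labels require. None of the 11 T cell markers tested was below background throughout a group. IL6 array 2 stood apart: the SD of its ratios over all genes was 0.538, against 0.247 to 0.416 on the other 6 arrays, and its ratios correlated across genes at r = -0.10 to -0.17 with the 4 arrays of TGFb with IL6 and at 0.21 and 0.31 with IL6 arrays 1 and 3. The 4 arrays of TGFb with IL6 correlated among themselves at 0.37 to 0.69. The conditions met on only 1 of the 5 slides, slide E, which carried TGFb with IL6 array 1 and IL6 arrays 1 and 3, and there TGFb with IL6 array 1 correlated at 0.62 with IL6 array 1. Removing a trend with position on the array took away 33.5% to 55.3% of the variance of the ratios of brighter spots on the 4 arrays of slide E. Slide B carried TGFb with IL6 arrays 2 and 4, and its Cy3 negative controls read 118 to 123, against 3.59 to 25.4 on all other slides. Transcripts of Ddx3y and Kdm5d, both on the Y chromosome, were above background in the Treg channel of all 4 arrays of TGFb with IL6 and of IL6 array 2, but not of IL6 arrays 1 and 3, and in no T-effector channel of the 7 arrays. Uty, also Y-linked, was above background in Treg of TGFb with IL6 arrays 1 and 3 and of IL6 array 2. Eif2s3y, a further Y-linked gene, was above it in Treg of all 4 arrays of TGFb with IL6 and of IL6 arrays 1 and 3. Its Treg signal was 9.27, 9.09, 9.55 and 8.81 with TGFb and IL6, against 6.46 and 6.36 on IL6 arrays 1 and 3. Eif2s3y has no value on IL6 array 2, so its level there is unknown. In T-effector it was above background on TGFb with IL6 arrays 1 and 3. The fits were therefore repeated without slide B, without slide E, without IL6 array 2 and without IL6 arrays 1 and 3. Leaving out slide E also removes IL6 arrays 1 and 3, so in both of those settings IL6 array 2, the one that stands apart, is the whole IL6 group and its spread is taken from the other groups. Of 76 called ratios among 95 genes examined singly, 15 still passed without slide B, 49 without IL6 array 2, 62 without slide E and 64 without IL6 arrays 1 and 3, and none changed sign. Of 60 Treg calls, 54, 56, 44 and 48 still passed in the same order of settings, and of 66 T-effector calls 50, 58, 34 and 44. What part these differences between arrays had in the results was not tested.

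The ratio differed between the arrays of TGFb with IL6 and those of IL6 for 804 of 19883 genes (4.04% of the genes tested). The threshold was an adjusted p under 0.05 in limma. The ratio was higher with TGFb and IL6 than with IL6 for 303 genes (1.52%) and lower for 501 (2.52%). The 4 ratios with TGFb and IL6 did not overlap the 3 with IL6 for 755 of the 804, and for 15.9% of all genes tested. Among the 501, 415 were higher in Treg with IL6 and lower in Treg, on average, with TGFb and IL6, 80 kept a higher level in Treg by a smaller margin, and 6 were already lower in Treg with IL6 and became more so. Among the 303, 244 turned, on average, from lower to higher in Treg, 42 were higher in Treg with IL6 and became more so, and 17 stayed lower in Treg by a smaller margin. These counts use only the signs of the 2 condition estimates. Tested within each condition, 25 of the 501 were called higher in Treg with IL6 and lower with TGFb and IL6. Of the 303, 10 were called on opposite sides in the reverse order. In neither condition were 133 of the 501 and 53 of the 303 called. Within slide E, TGFb with IL6 array 1 minus IL6 array 1, which share their dye orientation, had the sign of the fit for all 804 genes. These 2 arrays are part of the fit, so this is a description.

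**Figure D1:**
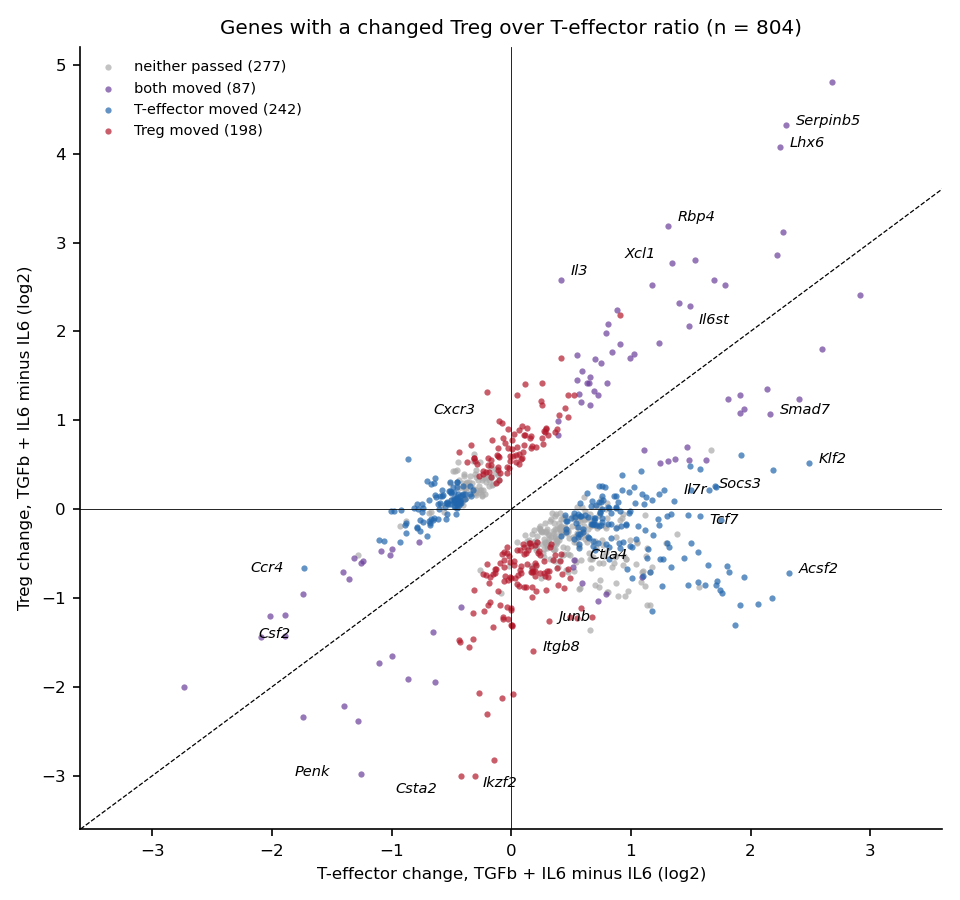
Each point is 1 of the 804 genes whose ratio differed. The x axis is the change in T-effector and the y axis the change in Treg, both TGFb with IL6 minus IL6 in log2 units, and colours show which sample passed its own test. Points above the dashed diagonal gained ratio and points below it lost ratio. Ikzf2 (Treg change -3.00) and Csta2 (-3.00) lie at the bottom, with T-effector changes of -0.30 and -0.42 that did not pass. Socs3 (T-effector change 1.66) and Klf2 (2.49) lie to the right, with Treg changes of 0.22 and 0.52 that did not pass.

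A ratio can fall because the Treg sample fell or because the T-effector sample rose, so the change in each sample was tested in a separate-channel fit of the same arrays. There, 917 genes (4.61%) were higher and 994 (5%) lower in Treg with TGFb and IL6 than with IL6. In T-effector 1003 (5.04%) were higher and 1164 (5.85%) lower. Much of this was shared: 977 genes passed in both samples in the same direction and 6 in opposite directions. Of the 804 genes with a changed ratio, 242 (30.1%) had moved in T-effector only, 198 (24.6%) in Treg only and 87 (10.8%) in both, by these tests, and for 277 (34.5%) neither sample passed on its own. A gene counted under 1 sample alone is not shown to be still in the other. Of the 501 with a lower ratio, T-effector had risen for 148, Treg had fallen for 115, both had risen for 17, both had fallen for 10 and Treg had fallen while T-effector rose for 6. Of the 303 with a higher ratio, T-effector had fallen for 94, Treg had risen for 83, both had risen for 39 and both had fallen for 15. Which sample led differed with the arrays used: without slide E, where IL6 array 2 is the whole IL6 group, 420 genes had moved in Treg only and 160 in T-effector only, out of 1922 called, and without IL6 arrays 1 and 3 the counts were 782 and 300 out of 2453. Without slide B, 17 genes were called, 10 of them moved in Treg only and 2 in T-effector only. In a fit over the 7 arrays the counts were 32 and 14. Leaving out 1 array at a time put Treg ahead, by 357 to 344 without IL6 array 1 and 110 to 86 without IL6 array 2. The exception was TGFb with IL6 array 4, with 105 and 129. T-effector led with slide as a fixed block (352 and 585) and with the array number as a block (19 and 35). These are RNA levels of whole cell samples, in which a smaller share of expressing cells and less RNA per cell cannot be told apart.

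The scale of the ratios also matters for direction. Centring each array on its median, in place of the intensity-dependent loess correction, moved the median difference of all genes to 0.32, against -0.02 in the fit used here, and gave 6113 calls, 5785 higher and 328 lower. Of the 804 genes, 161 then had the opposite sign, and 7 of the genes named below (Stat2, Gpr83, Lef1, Bcl2, Itgb7, Tnfrsf9 and Tnfrsf1b) were among those with a difference above 0. Over 23 settings with a test, 11 genes were called in the same direction every time: Ikzf2, Cstdc6, Csta2, Stfa2l1, Rnf213, a transcript the array names ENSMUST00000077110, Il3, Lhx6, Rbp4, Slc9a2 and A630038E17Rik. Of these, Lhx6 and Slc9a2 were near background in both samples with IL6, and Rbp4 was above it in Treg on 1 of 3 arrays of IL6.

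Ikzf2 lost most of its Treg excess, and the Treg sample was the one that moved. Its ratios were 0.21, 0.33, 0.76 and 0.36 with TGFb and IL6, against 2.40, 3.20 and 3.56 with IL6, so that all arrays still had it higher in Treg but by far less. In Treg its normalised log2 signal was 7.19, 7.17, 7.39 and 7.18 with TGFb and IL6, against 10.12, 10.16 and 10.33 with IL6. In T-effector it was 6.98, 6.83, 6.62 and 6.82, against 7.72, 6.95 and 6.77. The Treg values stood far apart between conditions, and the T-effector values overlapped. The ratio difference was -2.70 (SE 0.25, limma adjusted p = 0.000438), made of a Treg change of -3.00 (adjusted p = 8.30e-10) and a T-effector change of -0.30 (adjusted p = 0.413). Over all settings the ratio difference lay between -2.97 and -1.95, with adjusted p from 5.12e-06 to 0.0479.

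The stefins, small intracellular inhibitors of cysteine proteases, fell with Ikzf2. Cstdc6 had ratios of 0.76, 0.52, 0.59 and 0.42 with TGFb and IL6, against 3.29, 3.52 and 3.05 with IL6, a difference of -2.68 (SE 0.12, adjusted p = 9.54e-07). Csta2 had 0.75, 0.68, 0.59 and 0.67, against 3.24, 3.52 and 2.97, a difference of -2.58 (SE 0.19, adjusted p = 8.24e-05). Stfa2l1 had 0.45, 0.21, 0.59 and 0.33, against 2.54, 2.68 and 2.33, a difference of -2.10 (SE 0.16, adjusted p = 0.000116). The ratios of the 2 conditions did not overlap for any of these, and by the tests the Treg sample was the one that moved. In Treg, the signal of Csta2 was 9.01, 9.16, 8.71 and 9.06 with TGFb and IL6, against 12.13, 12.19 and 11.61 with IL6. Its T-effector signal was 8.27, 8.48, 8.11 and 8.39, against 8.89, 8.67 and 8.64, a smaller fall that also had no overlap. The Treg changes were -3.00 for Csta2 (adjusted p = 6.01e-11), -2.83 for Cstdc6 (adjusted p = 4.63e-13) and -2.31 for Stfa2l1 (adjusted p = 2.76e-10), against T-effector changes of -0.42, -0.14 and -0.20 (adjusted p = 0.136, 0.525 and 0.455). These genes belong to a cluster on chromosome 16 that holds 11 coding genes from Stfa2l1 to Stfa3 in the reference used here. The array tested 5 of the 11, and all 5 were lower in ratio and in Treg while none passed in T-effector. Stfa2 was well above background in Treg on all 3 arrays of IL6 and on none of the 4 of TGFb with IL6, and was at least 2.1-fold lower there with TGFb and IL6 (adjusted p = 2.59e-05). Stfa3, above background in Treg on 2 of 4 arrays of TGFb with IL6, had a Treg change of -1.30 (adjusted p = 9.92e-07). Without slide B the ratio differences of Stfa2 and Stfa3 did not pass (adjusted p = 0.142 and 0.0927), and with the array number as a block the T-effector change of Csta2 passed (-0.45, adjusted p = 0.0352). Cluster members are close copies of each other, so their probes may read each other's transcripts and are not independent.

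Because the cluster members moved together, the promoters of 3 of them are shown, from 250 bases before the start site to 50 after it, as RefSeq gives them for GRCm38.p6. Capitals mark the 5 runs of at least 12 bases that occur in all 3, in the same order, 85 of 300 bases each.
Stfa2l1, chr16:36156561-36156860, plus strand: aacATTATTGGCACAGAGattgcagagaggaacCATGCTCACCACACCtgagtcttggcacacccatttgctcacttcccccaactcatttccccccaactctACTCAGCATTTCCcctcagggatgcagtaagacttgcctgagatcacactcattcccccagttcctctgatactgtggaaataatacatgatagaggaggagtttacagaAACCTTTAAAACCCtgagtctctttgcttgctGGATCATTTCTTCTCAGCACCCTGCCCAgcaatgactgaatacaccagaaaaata
Stfa2, chr16:36408314-36408613, minus strand: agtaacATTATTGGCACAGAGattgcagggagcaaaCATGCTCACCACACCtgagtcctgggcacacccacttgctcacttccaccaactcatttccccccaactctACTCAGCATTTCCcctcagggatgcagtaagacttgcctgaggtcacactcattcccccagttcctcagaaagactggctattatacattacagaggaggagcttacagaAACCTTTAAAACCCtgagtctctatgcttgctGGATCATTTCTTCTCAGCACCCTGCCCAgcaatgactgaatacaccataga
Stfa3, chr16:36455343-36455642, minus strand: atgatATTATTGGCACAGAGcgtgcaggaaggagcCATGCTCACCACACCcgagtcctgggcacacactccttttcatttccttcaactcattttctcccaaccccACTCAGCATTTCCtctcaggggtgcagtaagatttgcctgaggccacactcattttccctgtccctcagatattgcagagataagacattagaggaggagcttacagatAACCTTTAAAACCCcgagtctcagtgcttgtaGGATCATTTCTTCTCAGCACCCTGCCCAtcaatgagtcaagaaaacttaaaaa
Stfa2l1 and Stfa2 were identical at 90.5% of aligned bases, and each was 80.9% identical to Stfa3. The promoter of Csta2, which fell further, was 43.4% to 49.7% identical to these. The longest run, GGATCATTTCTTCTCAGCACCCTGCCCA, begins 5 bases before the start site of Stfa2l1 and occurs in 3 of 27025 promoters in the table. The sequences describe the copies and show no site of action.

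Further genes lost ratio with a Treg fall that passed and a T-effector change that did not. Itgb8, whose integrin frees TGFb from its latent form, had ratios of 0.87, 0.50, 0.78 and 1.00 with TGFb and IL6, against 2.13, 3.57 and 2.13 with IL6. The ratio difference was -1.79 (SE 0.35, adjusted p = 0.0251) and the Treg change -1.60 (adjusted p = 0.000501); in T-effector Itgb8 was above background on only 1 of 4 and 1 of 3 arrays. Plagl1, a zinc finger factor, had a ratio difference of -1.33 (SE 0.19, adjusted p = 0.00593) with a Treg change of -0.89 (adjusted p = 0.00493). Junb, an AP-1 factor, had ratios of -1.20, -0.76, -0.03 and 0.07, against 0.28, 0.59 and 1.78, a difference of -1.57 (SE 0.18, adjusted p = 0.00205) with a Treg change of -1.26 (adjusted p = 0.000107). Its Treg signal was 12.51, 12.31, 13.18 and 12.996, against 13.89, 13.49 and 14.32, with no overlap. Crlf2, a chain of the TSLP receptor, also moved in Treg, by -0.86 (adjusted p = 0.0117). Cebpb, a bZIP factor, fell in Treg by 1.15 (adjusted p = 0.0282), while its ratio difference of -1.42 did not pass (adjusted p = 0.058). T-effector rises that did not pass added to these ratio differences. They were 0.44 for Plagl1 (adjusted p = 0.188), 0.39 for Crlf2 (adjusted p = 0.292) and 0.31 for Junb (adjusted p = 0.362). For Cebpb and Itgb8 they were 0.27 and 0.19 (adjusted p = 0.704 and 0.771). The T-effector values of Crlf2 did not overlap between conditions. Without slide E, where IL6 array 2 is the whole IL6 group, the Treg changes were -1.04 for Junb, -1.15 for Plagl1, -0.75 for Crlf2 and -0.61 for Cebpb, and none of these Treg changes passed there. The ratio differences of Plagl1 and Crlf2 without slide B were -1.21 (adjusted p = 0.0784) and -1.39 (adjusted p = 0.122). Without slide B they were -1.72 for Itgb8 (adjusted p = 0.155) and -1.73 for Junb (adjusted p = 0.0178); over all settings their adjusted p ran from 0.00314 to 0.155 and from 0.000315 to 0.348.

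**Figure D2:**
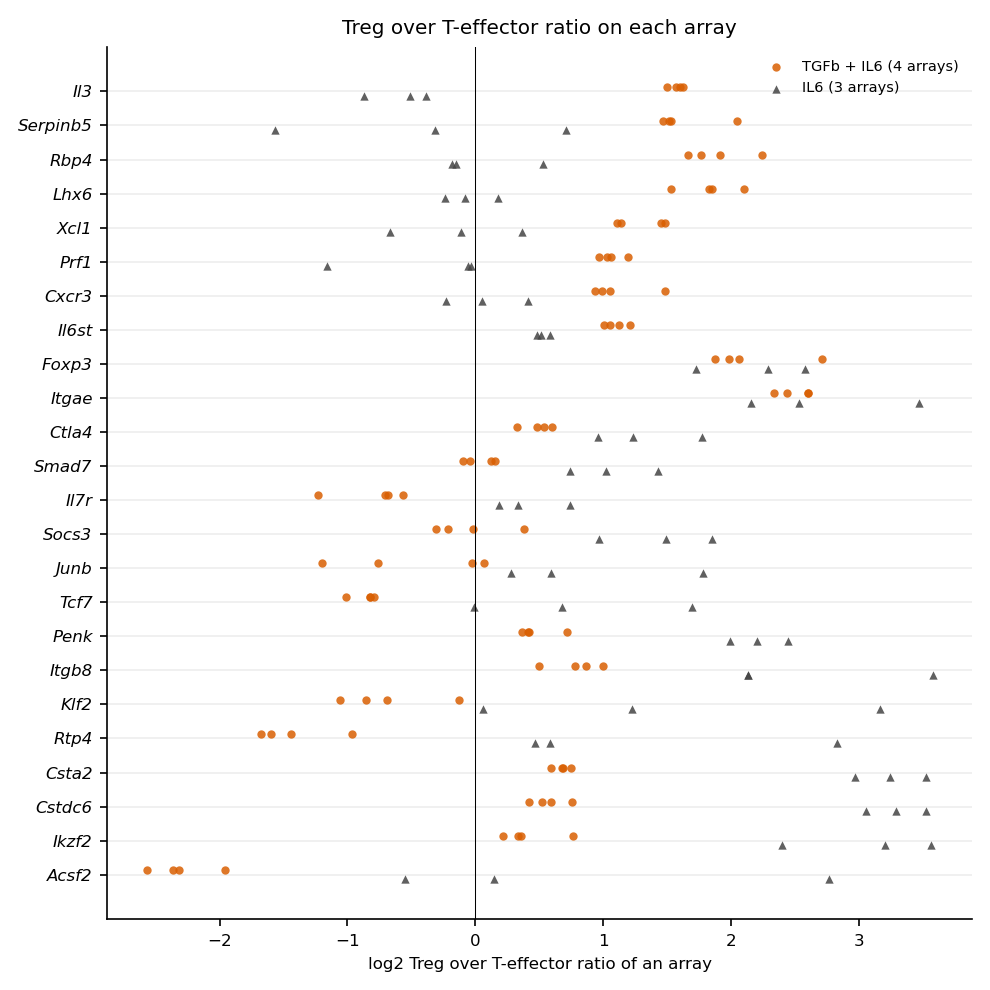
Log2 ratio of Treg over T-effector on each array for 24 genes, with the 4 arrays of TGFb with IL6 as circles above the 3 arrays of IL6 as triangles. Ikzf2, Csta2 and Cstdc6 lie between 0.21 and 0.76 with TGFb and IL6 and at 2.40 or more with IL6, Il3 and Lhx6 run the other way, and Foxp3 and Itgae overlap.

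Other genes gained ratio with a Treg change that passed and a T-effector change that did not. Cxcr3, a chemokine receptor of Th1 cells, had ratios of 1.48, 0.99, 0.94 and 1.05 with TGFb and IL6, against 0.41, 0.05 and -0.23 with IL6, a difference of 1.097 (SE 0.19, adjusted p = 0.0167). Its Treg signal was 10.59, 10.80, 10.44 and 10.72, against 9.57, 9.95 and 9.51, a change of 0.99 (adjusted p = 0.00352), and the T-effector change was -0.10 (adjusted p = 0.84). Nkg7, a cytotoxic granule protein, gained 0.84 in ratio (SE 0.18, adjusted p = 0.0325) and 0.54 in Treg (adjusted p = 0.0313). Gatm, an enzyme of creatine synthesis, gained 1.23 in ratio (SE 0.18, adjusted p = 0.00733) and 1.28 in Treg (adjusted p = 1.86e-05). A630038E17Rik, named here after its values were seen, gained 1.52 in ratio (SE 0.15, adjusted p = 0.000695) and 1.32 in Treg (adjusted p = 2.06e-07). Ighm, the heavy chain of IgM and a B cell marker, gained 0.73 in ratio (adjusted p = 0.027) and 0.61 in Treg (adjusted p = 0.00157). Cd8a, a marker of CD8+ T cells, rose in Treg by 1.79 (adjusted p = 0.00372), at 10.07, 10.21, 9.92 and 10.35 against 8.91, 7.56 and 8.56. Its ratio difference of 1.64 did not pass (SE 0.48, adjusted p = 0.0759), so it is not among the called ratios. The summed Treg signal of the 12 markers of CD8 T cells and NK cells was 6110 to 6770 with TGFb and IL6, against 3180 to 9490 with IL6, so the groups overlapped; over the 13 B cell markers it was 5510 to 6080, against 5120 to 5730. The part of these cells in the gains was not tested. The Treg change of Cxcr3 was 0.75 without slide E (adjusted p = 0.195) and 0.77 without IL6 arrays 1 and 3 (adjusted p = 0.177). Without slide E, Ighm had a ratio difference of 0.48 (adjusted p = 0.148) and a Treg change of 0.28 (adjusted p = 0.463), without IL6 arrays 1 and 3 these were 0.45 (adjusted p = 0.0963) and 0.29 (adjusted p = 0.227), and with the array number as a block its Treg change was 0.61 (adjusted p = 0.053). The Treg change of Nkg7 without IL6 array 2 was 0.41 (adjusted p = 0.176). Without slide B, the ratio differences of Gatm and Ighm were 1.37 (adjusted p = 0.098) and 0.70 (adjusted p = 0.167), and the Treg change of Cd8a was 1.65 (adjusted p = 0.0606). Without slide B, the ratio differences of Cxcr3 and Nkg7 were 1.22 and 0.83 (adjusted p = 0.0913 and 0.122); over all settings the adjusted p ran from 7.34e-05 to 0.0913 and from 0.00109 to 0.123.

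At Socs3 the ratio fell because T-effector rose. Its ratios were 0.38, -0.02, -0.31 and -0.22 with TGFb and IL6, against 1.49, 1.85 and 0.97 with IL6. In Treg the signal was 12.14, 12.27, 11.80 and 12.19, against 11.60, 12.45 and 11.66. In T-effector it was 11.77, 12.29, 12.11 and 12.40, against 10.11, 10.61 and 10.69. The Treg values overlapped, whereas every T-effector array of TGFb with IL6 lay above every one of IL6. The ratio difference was -1.44 (SE 0.27, adjusted p = 0.0191), from a T-effector change of 1.66 (adjusted p = 5.31e-05) and a Treg change of 0.22 (adjusted p = 0.687). The T-effector rise passed in all settings tried. The ratio difference did not pass without slide B (-1.35, adjusted p = 0.159) or without IL6 array 2 (-1.27, adjusted p = 0.0587), in a range of adjusted p from 0.00297 to 0.249.

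Ctla4 moved less. Its ratios were 0.33, 0.53, 0.59 and 0.48 with TGFb and IL6, against 0.96, 1.23 and 1.77 with IL6. The T-effector signal was 9.33, 9.18, 9.05 and 9.34, against 8.93, 8.55 and 8.57, and the Treg signal was 9.66, 9.71, 9.64 and 9.82, against 9.89, 9.79 and 10.34. Ctla4 was thus still higher in Treg on all 7 arrays, by a smaller margin, with T-effector above its IL6 levels and overlapping Treg levels. The ratio difference was -0.87 (SE 0.18, adjusted p = 0.0294), the T-effector change 0.56 (adjusted p = 0.0208) and the Treg change -0.32 (adjusted p = 0.248). Both calls rested on few arrays. Without slide B the ratio difference was -0.91 (adjusted p = 0.142) and the T-effector change 0.53 (adjusted p = 0.0784). Without IL6 array 2 they were -0.88 (adjusted p = 0.0683) and 0.47 (adjusted p = 0.115). Without slide E they were -0.67 (adjusted p = 0.0965) and 0.62 (adjusted p = 0.186). Over all settings the adjusted p of the ratio difference ran from 0.000268 to 0.889.

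Of the 16 genes of naive and memory T cells tested, 5 had a lower ratio and none a higher one, with a median difference of -0.31 against -0.02 for all genes; T-effector rose for 8 and fell for 2, and Treg rose for 3 and fell for 2. Of all genes tested, 2.52% had a lower ratio and 1.52% a higher one. T-effector rose for 5.04% of all genes and fell for 5.85%, and Treg rose for 4.61% and fell for 5%. Under median centring the median difference of the naive and memory genes was 0.59. Il7r, the IL7 receptor chain that sustains resting T cells, had ratios of -1.23, -0.68, -0.57 and -0.71 with TGFb and IL6, against 0.19, 0.33 and 0.74 with IL6. Its T-effector signal was 10.86, 10.43, 10.44 and 10.40, against 9.70, 8.95 and 8.94, a change of 1.36 (adjusted p = 4.38e-06), while Treg changed by 0.10 (adjusted p = 0.812). The ratio difference was -1.26 (SE 0.16, adjusted p = 0.00309). Klf2, a factor that keeps T cells recirculating, had ratios of -0.12, -0.69, -1.06 and -0.86, against 1.22, 3.16 and 0.06, a difference of -1.97 (SE 0.46, adjusted p = 0.0409) from a T-effector change of 2.49 (adjusted p = 0.000377). The IL6 ratios of Klf2 ran from 0.06 to 3.16, with IL6 array 2 highest. Its Treg change of 0.52 did not pass (adjusted p = 0.553) and was not stable: it was 1.32 without IL6 array 2 (adjusted p = 0.00502) and -1.24 without slide E (adjusted p = 0.102). Tcf7, a factor of naive and memory cells, had -1.01, -0.79, -0.83 and -0.83, against -0.01, 1.70 and 0.68, a difference of -1.65 (SE 0.31, adjusted p = 0.0199) from a T-effector change of 1.57 (adjusted p = 0.000294). Lef1, its relative, and Bcl2, a survival protein, had differences of -1.04 (adjusted p = 0.0332) and -0.77 (adjusted p = 0.0454), with T-effector changes of 0.68 (adjusted p = 0.0288) and 0.74 (adjusted p = 0.0111); both turned above 0 under median centring. Itgb7, a gut-homing integrin chain of the chemokine and adhesion list, did likewise, with a ratio difference of -0.95 (adjusted p = 0.0238), a T-effector change of 0.64 (adjusted p = 0.023) and the same turn of sign. Tcf7 and Lef1 also fell in Treg without slide E, by 0.93 (adjusted p = 0.0309) and by 0.97 (adjusted p = 0.0181). The T-effector changes of Lef1, Bcl2 and Itgb7 did not pass without slide B (adjusted p = 0.123, 0.09 and 0.17) or without slide E (adjusted p = 0.163, 0.35 and 0.321), and that of Lef1 was 0.62 with the array number as a block (adjusted p = 0.106). Without slide B the T-effector rises of Klf2 (2.41), Tcf7 (1.52) and Il7r (1.49) still passed (adjusted p = 0.00917, 0.0135 and 0.000169), but 1 of the 5 ratio differences did, that of Il7r (-1.39, adjusted p = 0.0307). Without IL6 array 2 the ratio difference of Klf2 was -1.32 (adjusted p = 0.0739), in a range of adjusted p from 0.000951 to 0.167.

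The promoters of Socs3 and Il7r are shown because both genes rose in T-effector and their windows hold the letters TTCNNNGAA, the palindrome that STAT factors are known to bind, in capitals.
Socs3, chr11:117969317-117969616, minus strand: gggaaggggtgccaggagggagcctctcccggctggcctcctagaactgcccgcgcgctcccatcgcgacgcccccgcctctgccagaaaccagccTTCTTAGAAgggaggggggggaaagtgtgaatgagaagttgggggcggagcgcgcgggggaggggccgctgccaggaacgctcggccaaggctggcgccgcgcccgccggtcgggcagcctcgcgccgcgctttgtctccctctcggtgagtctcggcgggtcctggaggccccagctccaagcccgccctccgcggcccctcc
Il7r, chr15:9529827-9530126, minus strand: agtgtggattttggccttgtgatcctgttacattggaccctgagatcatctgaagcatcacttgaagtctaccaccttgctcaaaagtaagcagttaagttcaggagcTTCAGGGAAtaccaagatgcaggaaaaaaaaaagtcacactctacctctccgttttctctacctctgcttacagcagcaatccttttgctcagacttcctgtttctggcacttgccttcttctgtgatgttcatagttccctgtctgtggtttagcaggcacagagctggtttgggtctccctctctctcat
Counted from the start site, the match begins at position -154 in Socs3 and at -142 in Il7r. The windows of Ctla4, Il6st, Klf2 and Csta2 were also searched and held no match. Of these, Ctla4, Il6st and Klf2 rose in T-effector too. The pattern reads the same on both strands and occurs in 8.47% of all 27025 promoters and in 7.22% of the 12362 of genes tested here. It was in 8 of 104 promoters (7.69%) of genes with a lower ratio through T-effector and in 2 of 75 (2.67%) of those through Treg. CAGAC, the letters of the Smad box, searched on both strands, was in 54.8% and 45.3% of these promoters, against 48.6% of genes tested. A match is a description of the letters only.

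Of the 23 interferon-induced genes tested, 4 had a lower ratio and none a higher one, with a median difference of -0.44; T-effector rose for 9 and fell for 1, while Treg rose for 1 and fell for 3. Beside these counts, 2.52% of all genes tested had a lower ratio and 1.52% a higher one. Over all genes T-effector rose for 5.04% and fell for 5.85%, and Treg rose for 4.61% and fell for 5%. Under median centring the median difference of the interferon-induced genes was 0.02. Stat2, which carries interferon signals, had a ratio difference of -0.87 (adjusted p = 0.0275) and a T-effector change of 0.87 (adjusted p = 8.30e-05); its ratio difference turned above 0 under median centring. Rtp4, a chaperone of membrane receptors, had ratios of -1.44, -0.97, -1.60 and -1.67 with TGFb and IL6, against 0.47, 2.82 and 0.58 with IL6, a difference of -2.53 (SE 0.55, adjusted p = 0.0321) and a T-effector change of 1.82 (adjusted p = 0.0142). Oas1a, an antiviral enzyme with a lower ratio, instead fell in Treg by 0.43 (adjusted p = 0.0017), near background. Without slide B no member had a called ratio and 2 rose in T-effector; without slide E 3 had a lower and 1 a higher ratio and none rose in T-effector; without IL6 arrays 1 and 3, 2 had a lower and 1 a higher ratio and 2 rose. The T-effector change of Rtp4 was 1.75 without slide B (adjusted p = 0.1) and 1.49 without slide E (adjusted p = 0.317), and the Treg change of Oas1a without slide E was -0.31 (adjusted p = 0.377).

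Of the 15 genes named for the lowest differences, 11 were neither stefins nor members of a list. Kcna7, a potassium channel, had ratios of -2.77, -2.33, -2.16 and -2.15 with TGFb and IL6, against -0.73, 2.73 and 0.39 with IL6, a difference of -3.13 (SE 0.60, adjusted p = 0.0208). Acsf2, an acyl-CoA synthetase, had -2.57, -2.36, -2.31 and -1.96, against -0.55, 2.76 and 0.15, a difference of -3.04 (SE 0.58, adjusted p = 0.0203). Rab11fip5, Lrrc71, Fscn3, Galnt5, Pdxk, Mtm1 and the olfactory receptor probes Olfr430, Olfr741 and Olfr1153 followed at -2.71 to -2.13, and over all arrays each of the 11 genes passed in T-effector, with changes of 1.18 to 2.32, and none in Treg. IL6 array 2 was highest for each of them. Without it the difference was -2.10 for Acsf2 (adjusted p = 0.0023) and -2.19 for Kcna7 (adjusted p = 0.00554); without slide B it was -3.16 and -3.24 (adjusted p = 0.15 and 0.155). Without slide E the differences were larger, at -4.85 and -4.82 (adjusted p = 8.16e-05 for both), and both genes then also fell in Treg, by 1.89 (adjusted p = 0.00791) and by 2.10 (adjusted p = 0.0416). The T-effector changes of Fscn3, Olfr741, Rab11fip5 and Pdxk did not pass without IL6 array 2 (adjusted p = 0.114, 0.0592, 0.0907 and 0.168), and with the array number as a block those of Rab11fip5 and Mtm1 did not (adjusted p = 0.0651 and 0.0597). Without slide E, Mtm1 passed in Treg (-2.30, adjusted p = 0.000613) and not in T-effector (1.103, adjusted p = 0.0795).

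Of 22 genes of cholesterol synthesis, 4 had a higher ratio and none a lower one, with a median difference of 0.45. T-effector fell for 10 and rose for none, and no gene passed in Treg. Among all genes tested, 1.52% had a higher ratio and 2.52% a lower one. T-effector fell for 5.85% of all genes and rose for 5.04%, and Treg fell for 5% and rose for 4.61%. Cyp51, a sterol demethylase, had ratios of 0.20, 0.34, 0.22 and 0.17 with TGFb and IL6, against -0.44, -1.02 and -0.09 with IL6, a difference of 0.72 (SE 0.17, adjusted p = 0.0442) and a T-effector change of -0.88 (adjusted p = 0.00197). Fdft1, squalene synthase, had a difference of 0.71 (adjusted p = 0.0454) and a T-effector change of -0.89 (adjusted p = 0.000966). Hmgcs1, at the head of the pathway, had 0.76 (adjusted p = 0.0454) and -1.10 (adjusted p = 0.00471). Sqle, squalene epoxidase, gained 0.86 in ratio (adjusted p = 0.0409) with neither sample passing. The counts depended on the arrays: without slide B no ratio was called and 7 genes fell in T-effector, whereas without slide E 7 ratios were higher and none fell in T-effector. Without IL6 array 2 no ratio was called, 11 genes fell in T-effector and 7 fell in Treg.

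Other genes gained ratio through a lower T-effector level. Prf1, the pore-forming protein perforin, had ratios of 0.96, 1.06, 1.19 and 1.03 with TGFb and IL6, against -0.04, -1.16 and -0.06 with IL6. The ratio difference was 1.42 (SE 0.23, adjusted p = 0.0116), the T-effector change -0.86 (adjusted p = 0.00803) and the Treg change 0.56 (adjusted p = 0.101). Ccr4, a chemokine receptor of Th2 cells and Treg, gained 1.07 in ratio (adjusted p = 0.0405) while T-effector fell by 1.73 (adjusted p = 1.06e-05). Cdc6, a licensing factor of DNA replication, gained 0.57 (adjusted p = 0.0396) while T-effector fell by 0.41 (adjusted p = 0.0283). Ccr4 and Cdc6 had ratio differences of 1.13 (adjusted p = 0.177) and 0.60 (adjusted p = 0.173) without slide B, and Ccr4 also fell in Treg without IL6 array 2, by 1.03 (adjusted p = 0.000185). The T-effector change of Cdc6 was -0.43 without slide E (adjusted p = 0.379) and -0.43 with the array number as a block (adjusted p = 0.0931). Without slide E, Prf1 had a Treg change of 1.07 that passed (adjusted p = 0.0483) and a T-effector change of -0.99 that did not (adjusted p = 0.0933). The ratio difference of Prf1 without slide B was 1.42 (adjusted p = 0.122), in a range of adjusted p from 0.00102 to 0.122.

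**Figure D3:**
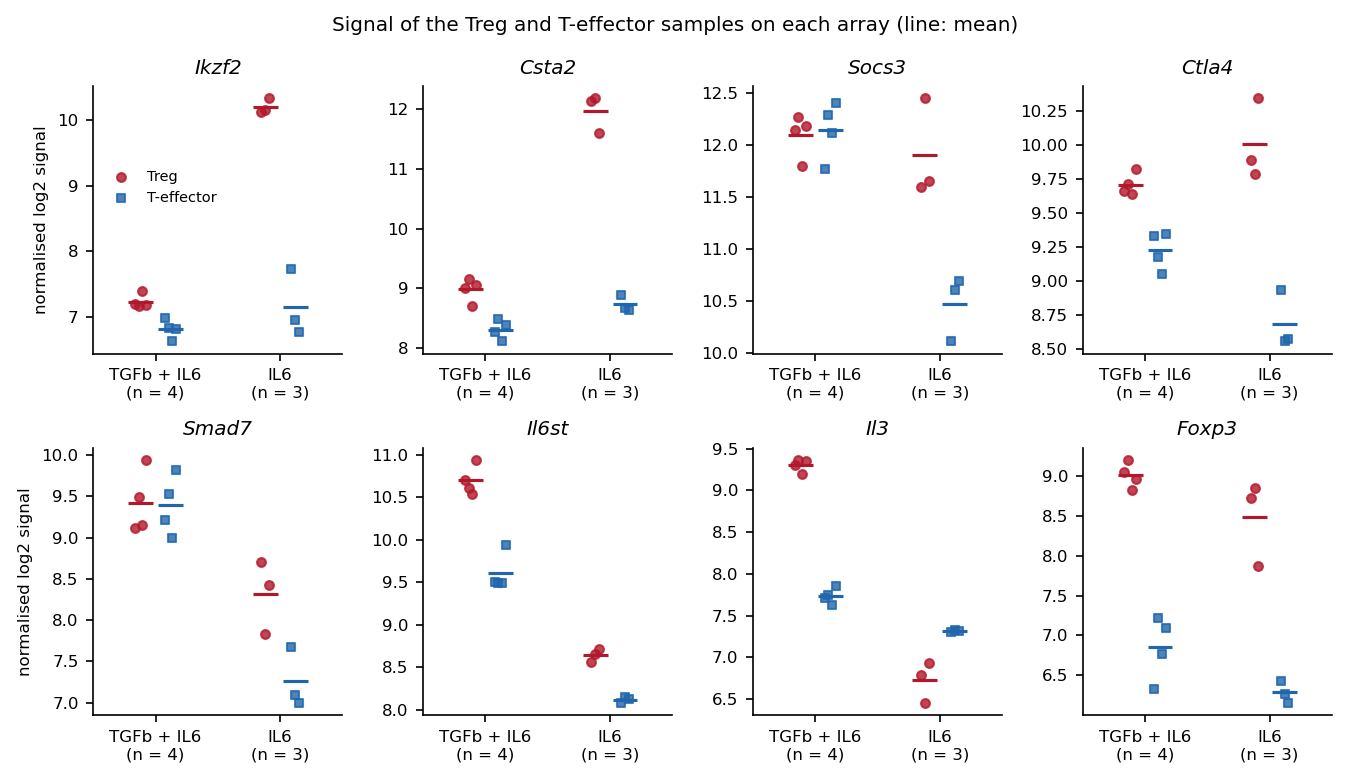
Normalised log2 signal of the Treg (circles) and T-effector (squares) samples on each array for 8 genes, TGFb with IL6 left of IL6, with lines at the means of 4 and 3 arrays; the axes do not start at 0. Ikzf2 and Csta2 are lower with TGFb and IL6 in Treg, Socs3 is higher in T-effector with overlapping Treg values, Smad7 and Il6st are higher in both samples, and Il3 is higher mainly in Treg.

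In a further group both samples moved the same way, but not equally. Smad7, an inhibitor of TGFb receptors that TGFb itself induces, had ratios of -0.10, -0.04, 0.16 and 0.12 with TGFb and IL6, against 1.02, 0.74 and 1.42 with IL6. It rose by 1.07 in Treg (adjusted p = 0.000771) and by 2.16 in T-effector (adjusted p = 1.08e-07), which gave a ratio difference of -1.09 (SE 0.14, adjusted p = 0.00439). It was higher in Treg on all 3 arrays of IL6 and near equal in both samples with TGFb and IL6. Il6st, the gp130 chain through which IL6 signals, ran opposite in ratio, with 1.21, 1.12, 1.05 and 1.00 against 0.48, 0.51 and 0.59. It rose by 2.06 in Treg (adjusted p = 6.01e-11) and by 1.48 in T-effector (adjusted p = 1.29e-08), for a ratio difference of 0.58 (SE 0.11, adjusted p = 0.0187). Tnfrsf1b, a TNF receptor, and Gpr83, a Treg-associated receptor, rose more in T-effector than in Treg, with ratio differences of -0.44 (adjusted p = 0.0492) and -0.81 (adjusted p = 0.0281); both turned above 0 under median centring, and their Treg changes did not pass without slide B (adjusted p = 0.145 and 0.2) or without slide E (adjusted p = 0.612 and 0.825). With the array number as a block the Treg change of Smad7 was 0.93 (adjusted p = 0.052). Without slide E the ratio differences of Smad7 and Il6st were -0.87 (adjusted p = 0.0556) and 0.61 (adjusted p = 0.0825). The ratio differences of Smad7 and Il6st without slide B were -1.10 and 0.61 (adjusted p = 0.0931 and 0.142), and over all settings their adjusted p ran from 0.000463 to 0.0931 and from 0.000482 to 0.142.

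Genes with high gains in ratio were also of this kind. Il3, a cytokine of activated T cells, had ratios of 1.60, 1.62, 1.57 and 1.49 with TGFb and IL6, against -0.51, -0.87 and -0.39 with IL6. Its Treg signal was 9.31, 9.37, 9.19 and 9.35, against 6.79, 6.46 and 6.93, a change of 2.58 (adjusted p = 6.88e-13), while T-effector changed by 0.42 (adjusted p = 0.0167), at 7.71, 7.75, 7.63 and 7.86 against 7.31, 7.33 and 7.32. Il3 was thus lower in Treg on all 3 arrays of IL6 and higher in Treg on all 4 of TGFb with IL6, a difference of 2.16 (SE 0.13, adjusted p = 1.62e-05). The T-effector change of Il3 did not pass without slide B (adjusted p = 0.128), without slide E (adjusted p = 0.315) or with the array number as a block (adjusted p = 0.0977). Lhx6, a homeobox factor, had ratios of 1.82, 1.53, 2.10 and 1.85, against 0.18, -0.24 and -0.08, a difference of 1.83 (SE 0.17, adjusted p = 0.000438). In Treg none of the 3 arrays of IL6 had it well above background, and it was at least 16.3-fold higher with TGFb and IL6 (adjusted p = 6.41e-13); in T-effector it rose by 2.25 (adjusted p = 9.18e-09), with 1 of 3 arrays of IL6 above background. Rbp4, the plasma carrier of retinol, had 2.24, 1.91, 1.76 and 1.66, against -0.15, 0.53 and -0.18, a difference of 1.88 (SE 0.16, adjusted p = 0.000247). It rose by 3.19 in Treg (adjusted p = 4.21e-11), where 1 of 3 arrays of IL6 was above background, and by 1.31 in T-effector (adjusted p = 2.48e-05). Serpinb5, a member of the serpin family, had 2.04, 1.53, 1.51 and 1.46, against 0.71, -1.56 and -0.31, a difference of 2.02 (SE 0.40, adjusted p = 0.0239) from rises of 4.32 in Treg (adjusted p = 1.47e-09) and 2.30 in T-effector (adjusted p = 1.66e-05). Xcl1, the chemokine lymphotactin, had 1.13, 1.45, 1.48 and 1.104, against -0.67, 0.36 and -0.11, a difference of 1.43 (SE 0.25, adjusted p = 0.0148) from rises of 2.77 (adjusted p = 1.69e-09) and 1.34 (adjusted p = 5.69e-05). Slc9a2 and Mical2 were not well above background in Treg with IL6, and were at least 4.58-fold (adjusted p = 5.00e-09) and at least 3.47-fold higher there with TGFb and IL6 (adjusted p = 1.12e-07). In T-effector with IL6, Slc9a2 was above background on 1 of 3 arrays and Mical2 on none. The IL6 ratios of Lhx6, Slc9a2 and Mical2 thus compare signals at or near background and do not show equal levels. The size of their ratio differences is uncertain for that reason. The ratio differences of Serpinb5 and Xcl1 without slide B were 2.17 and 1.42 (adjusted p = 0.15 and 0.131); without IL6 arrays 1 and 3 they were 3.20 and 0.92 (adjusted p = 0.000169 and 0.075).

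Genes that fell in both samples included Penk, Tnfrsf9, Ccr2, Csf2 and Pdcd1lg2. Penk, the precursor of enkephalins and a Treg-associated gene, had ratios of 0.72, 0.42, 0.41 and 0.36 with TGFb and IL6, against 2.44, 1.99 and 2.20 with IL6. It fell by 2.98 in Treg (adjusted p = 1.15e-09) and by 1.26 in T-effector (adjusted p = 0.000219), for a ratio difference of -1.72 (SE 0.18, adjusted p = 0.00153). Tnfrsf9, the costimulatory receptor 4-1BB, fell by 1.73 (adjusted p = 3.28e-09) and by 1.11 (adjusted p = 2.89e-06), and its ratio difference of -0.62 (adjusted p = 0.0304) turned above 0 under median centring. Ccr2, a chemokine receptor, fell by 1.38 (adjusted p = 1.05e-06) and by 0.66 (adjusted p = 0.00535), for a ratio difference of -0.73 (adjusted p = 0.0307). Csf2, the cytokine GM-CSF, and Pdcd1lg2, a ligand of the receptor PD-1, fell further in T-effector, and so gained ratio. Csf2 changed by -1.20 in Treg (adjusted p = 7.55e-06) and by -2.01 in T-effector (adjusted p = 4.62e-09), for a ratio difference of 0.81 (adjusted p = 0.037). Pdcd1lg2 changed by -0.45 (adjusted p = 0.0381) and by -0.99 (adjusted p = 2.87e-05), for 0.54 (adjusted p = 0.0372). The ratio difference of Penk without slide B was -1.63 (adjusted p = 0.0738), and its T-effector change without slide E was -1.24 (adjusted p = 0.062). The ratio differences of Tnfrsf9, Ccr2, Csf2 and Pdcd1lg2 did not pass without slide B (adjusted p = 0.106, 0.155, 0.168 and 0.128). The Treg change of Pdcd1lg2 was -0.30 without slide E (adjusted p = 0.66) and -0.44 with the array number as a block (adjusted p = 0.111), and the T-effector change of Ccr2 without slide E was -0.53 (adjusted p = 0.294).

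For 6 genes, named here after their values were seen, Treg fell and T-effector rose, and these were all such genes among the 19883 tested: Rnf213, Tecpr1, Ppp1r14c, Phf1, H2-M3 and Itga7. Rnf213, a large ubiquitin ligase, had ratios of -1.33, -1.08, -0.93 and -0.99 with TGFb and IL6, against 0.38, 0.61 and 0.90 with IL6, a difference of -1.76 (SE 0.12, adjusted p = 7.60e-05). Its Treg signal was 9.25, 9.58, 9.38 and 9.82, against 10.20, 10.87 and 10.48, a change of -1.03 (adjusted p = 0.000165). Its T-effector signal was 10.57, 10.66, 10.31 and 10.81, against 9.82, 10.25 and 9.58, a change of 0.73 (adjusted p = 0.00509). Rnf213 was therefore higher in Treg on all 3 arrays of IL6 and lower on all 4 of TGFb with IL6. H2-M3, a nonclassical class I molecule, had a difference of -1.16 (SE 0.14, adjusted p = 0.00309), from -0.65 in Treg (adjusted p = 0.00941) and 0.51 in T-effector (adjusted p = 0.0399). Under Agilent's processed signals Ppp1r14c had a ratio difference of 0.31 and a T-effector change of -0.54, against -1.75 and 0.80 here. Of the 6, Phf1 passed in both samples without slide B, without slide E, without IL6 array 2 and without IL6 arrays 1 and 3. The T-effector change of H2-M3 was 0.34 without slide B (adjusted p = 0.142) and 0.49 without IL6 array 2 (adjusted p = 0.127), and its Treg change without slide E was -0.57 (adjusted p = 0.374). Itga7 did not pass in T-effector without slide B (0.42, adjusted p = 0.116) or in Treg without slide E (-0.81, adjusted p = 0.108). Ppp1r14c passed in neither sample without slide B (adjusted p = 0.144 in Treg and 0.14 in T-effector), and Tecpr1 not in Treg (adjusted p = 0.0943). With the array number as a block Tecpr1 lost its Treg call (adjusted p = 0.0986) and H2-M3 its T-effector call (adjusted p = 0.0859). Without slide B or without IL6 arrays 1 and 3 the T-effector change of Rnf213 no longer passed (0.58, adjusted p = 0.0711, and 0.39, adjusted p = 0.394), in a range of adjusted p from 4.35e-05 to 0.556.

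Several genes most tied to TGFb and IL6 had no ratio difference that passed over all arrays, and some of them moved in both samples. Foxp3 had a ratio difference of 0.04 (SE 0.22, adjusted p = 0.944), a Treg change of 0.56 (adjusted p = 0.138) and a T-effector change of 0.53 (adjusted p = 0.154). Itgae, the CD103 integrin chain that TGFb induces, stayed strongly higher in Treg, with ratios of 2.33, 2.60, 2.60 and 2.44, against 2.53, 2.15 and 3.47. It rose by 1.28 in Treg (adjusted p = 0.000465) and by 1.57 in T-effector (adjusted p = 4.98e-05), and its ratio difference was -0.28 (SE 0.23, adjusted p = 0.501). Il17f, a Th17 cytokine, rose by 3.10 (adjusted p = 1.27e-13) and by 3.61 (adjusted p = 1.87e-14), for a ratio difference of -0.50 (SE 0.15, adjusted p = 0.0868). Il10, an inhibitory cytokine, rose by 1.70 (adjusted p = 0.000486) and by 1.48 (adjusted p = 0.00207), for 0.23 (SE 0.29, adjusted p = 0.691). Ldlrad4 and Pmepa1, feedback inhibitors of TGFb signalling, rose in both samples, by 2.78 and 1.14 in Treg (adjusted p = 3.14e-10 and 0.000326) and by 2.45 and 0.70 in T-effector (adjusted p = 3.22e-09 and 0.0209). Il17a, Cd24a and Il2ra passed in neither sample, with ratio differences of 0.12, -0.34 and 0.24 (adjusted p = 0.728, 0.407 and 0.609). Ifng had ratios of 0.15, 0.35, 0.43 and 0.16, against -0.16, -3.10 and -0.20, with IL6 array 2 far below the rest, and the difference of 1.34 did not pass (SE 0.53, adjusted p = 0.173). With IL6 array 2 as the whole IL6 group, without slide E, some of these ratios did pass: Ifng at 3.23 (adjusted p = 0.000743), Il2ra at 1.15 (adjusted p = 0.0168) and Il10 at 0.92 (adjusted p = 0.0349), with Treg changes of 2.83 for Ifng (adjusted p = 5.11e-05) and 1.16 for Il2ra (adjusted p = 0.00782). Pmepa1 did not pass in T-effector without slide B (adjusted p = 0.155) or with the array number as a block (adjusted p = 0.086). A p above the threshold does not show equal levels.

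The gene lists were then read as counts, beside the shares of all genes tested. Of all genes, 4.61% rose and 5% fell in Treg, and 5.04% rose and 5.85% fell in T-effector. A changed ratio was called for 4.04% of all genes. Called ratios made up 5% of the Th17 list, 6.67% of the cell cycle list and 7.14% of the TGFb list, near that share, against 21.9% of the Treg core list and 19% of the Th1 list. Other lists had like or higher shares. These were 31.2% of the naive and memory list, 28.6% of genes usually lower in Treg (3 higher and 3 lower) and 22.2% of the TNF receptor and CD28 family. The IL2 and STAT5 list had 19% and the chemokine and adhesion list 18.5%. Of 32 Treg core genes, 7 had a lower ratio (Ikzf2, Itgb8, Penk, Plagl1, Ctla4, Gpr83 and Tnfrsf9) and none a higher one, with a median difference of -0.29, which was 0.43 under median centring, with 4 lower and 7 higher ratios; Treg rose for 9 and fell for 8, and T-effector rose for 11 and fell for 8. Of 28 genes of TGFb response and feedback, 12 rose and 2 fell in Treg, 11 rose and 3 fell in T-effector, and 2 members, Itgb8 and Smad7, had a changed ratio, both lower. Of 25 genes of the IL6 and STAT3 response, 8 rose and 5 fell in Treg and 6 rose and 2 fell in T-effector; the ratio was higher for Il6st and Ier3 and lower for Junb and Socs3. Of 20 Th17 genes, 7 rose and 4 fell in Treg and 6 rose and 3 fell in T-effector, and 1 ratio changed, that of Csf2. Of 21 Th1 and cytotoxic genes, 4 had a higher ratio (Xcl1, Prf1, Cxcr3 and Nkg7) and none a lower one, with a median difference of 0.30. Of 22 genes of glycolysis and hypoxia, 10 fell and 1 rose in Treg, and 13 fell and none rose in T-effector. The median changes were -0.75 and -0.78, and no ratio changed. Without slide B 9 fell in Treg and 13 in T-effector. Without IL6 array 2 these counts were 16 and 14, and without IL6 array 3 they were 6 and 8. Fewer fell in either sample without slide E or without IL6 arrays 1 and 3, which leave IL6 array 2 alone. Under median centring 12 of the 22 ratios were called higher. Of 30 cell cycle genes, Ccnb1 and Cdc6 had a higher ratio. Without slide B the 7 lower ratios of the Treg core list became 1 and the 4 higher ratios of the Th1 list became 0; without IL6 arrays 1 and 3 the Treg core list had 8 lower and 5 higher ratios and the Th1 list 7 higher and 1 lower, and without slide E the Treg core list had 7 lower and 4 higher.

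**Figure D4:**
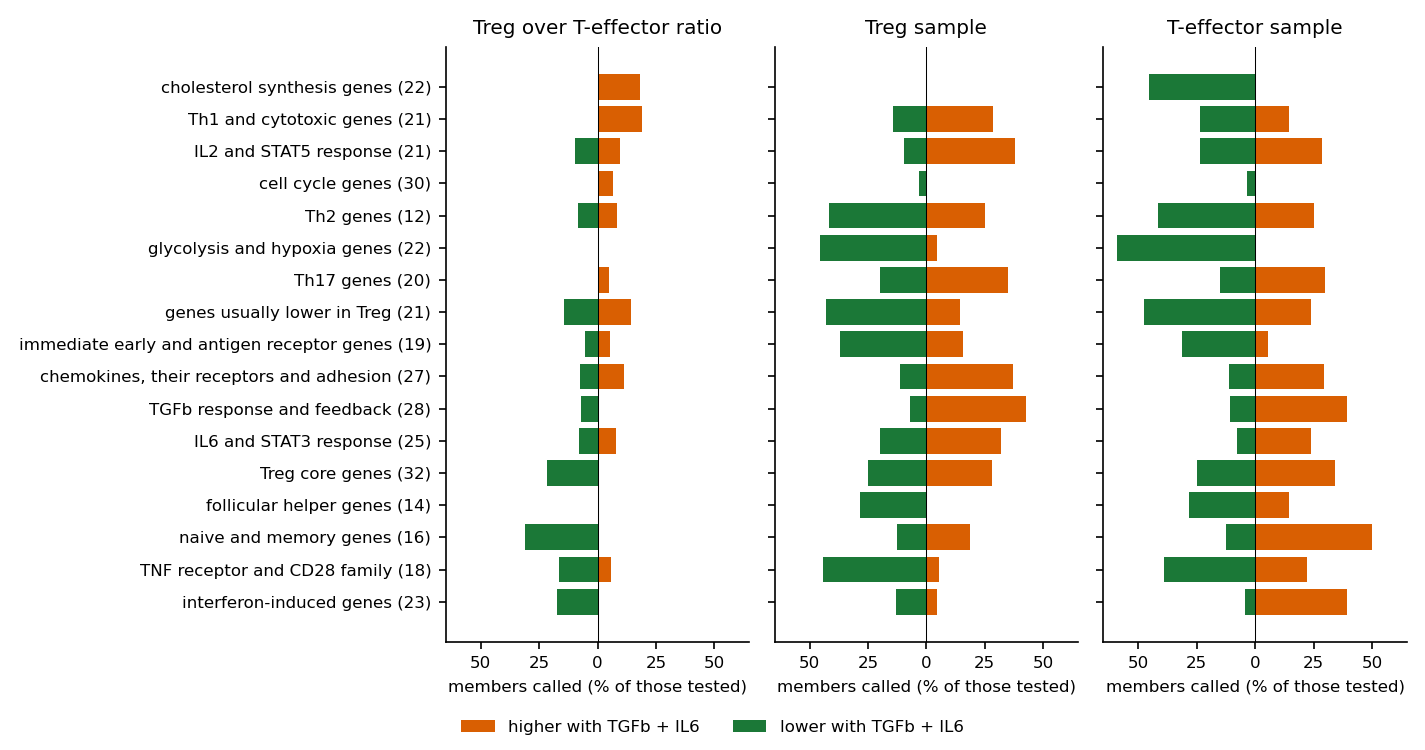
Share of the tested members of each gene list that passed in the ratio, in Treg and in T-effector, TGFb with IL6 against IL6, with higher members to the right and lower members to the left; the number tested stands beside each name. Of the naive and memory genes 5 of 16 lost ratio and 8 rose in T-effector, of the interferon-induced genes 4 of 23 and 9, and 10 of 22 cholesterol synthesis genes fell in T-effector. Of all genes tested, 2.52% lost ratio, and in T-effector 5.04% rose and 5.85% fell. Under median centring the median ratio differences of these 3 lists were 0.59, 0.02 and 1.32.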

How the data were processed

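The deposited scanner files of the 13 arrays hold spot intensity per dye with local background, written by Agilent Feature Extraction 9.5.1.1, per the submitters' processing notes; the deposited table of log2 values per condition, made by the authors, was only compared with the arrays. Background was corrected by normexp (offset 50), arrays were loess-normalised, control spots were left out, and 28908 of 41174 probes, those clear of background in 3 or more of the 26 channels, were kept, then 1 per gene (highest mean signal). Of the probes, 23082 were named through accessions and 8437 kept the file's name. limma 3.58.1 in R 4.3.3 fitted the 13 ratios to condition and dye (8 residual degrees of freedom), and, after Aquantile scaling, both channels with an intraspot correlation of 0.45. Missing arrays were filled with the condition mean in the second fit, for 111 genes over the 13 arrays. Of the genes with a called ratio, 2 lacked a value among the 7 arrays compared. p-values were adjusted by Benjamini-Hochberg over 19883 genes. "At least" folds set each dim array at the lowest signal among probes well above background, or at its own signal where higher. Promoters are from RefSeq for GRCm38.p6, with an entry for 12362 of the genes tested.

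The members, the gene lists and the naming rule were chosen with earlier results of these data known. The rule names fixed anchor genes, up to 4 called genes of each list, and the 15 highest and 15 lowest called genes whose ratios do not overlap. Stfa2l1, Stfa2, Stfa3, ENSMUST00000077110, A630038E17Rik, Gpr83, Ccr2, Cd8a, Ahr, Nt5e, Socs2, Gata3, Il22, S1pr1 and the 6 genes with opposite changes were added after their values were seen. The deviations of same-numbered arrays correlated above 0.1 in every pair for Treg (0.15 to 0.49) and T-effector (0.62 to 0.72) but not for the ratio, so the array number was also used as a block; nothing in the labels says what it stands for. The calculations were tested on simulated data. Alternatives changed background, scaling, filter, dye, slide or the arrays used. The array number limits precision, and the scale of the authors' table is unknown. Some genes that the rule names are not reported here.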

Additional observations from a re-analysis of the deposited data

Results flagged for a closer look

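Among the 4 arrays of TGFb with IL6, 11 of 97 genes examined had 1 ratio set far from the other 3, and 8 of these were on array 1. The cutoff is passed by chance about 1 in 20 times when values are independent and normally distributed. These genes were picked and share the same arrays, so that rate is no expectation for their count. Array 1 gave Olfr430 at -2.49 (others -1.98 to -1.88), Penk at 0.72 (others 0.36 to 0.42), Tcf7 at -1.01 (others -0.83 to -0.79), Mical2 at 1.66 (others 1.04 to 1.09), Tcrg at 1.66 (others 0.73 to 0.86), Slc9a2 at 1.66 (others 1.15 to 1.23), Serpinb5 at 2.04 (others 1.46 to 1.53) and Ccr2 at 0.78 (others 0.15 to 0.25). Array 2 gave Plagl1 at -0.06 (others 0.23 to 0.28) and Il22 at -0.23 (others -0.17 to -0.16), and array 3 gave Ccr4 at 0.70 (others 0.39 to 0.41). The difference between the arrays of TGFb with IL6 and those of IL6 was unlike in Treg and T-effector for 804 genes, by limma's test of the ratio difference itself. Of these, 6 passed in both samples in opposite directions.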

How the results depend on the processing

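The number of changed ratios depended strongly on the settings. Against 804 changed ratios, there were 436 with no dye term, 163 with arrays of 1 slide and condition averaged, 66 in a fit over the 7 arrays and 17 without slide B, but 1492 and 2265 with slide as a fixed and a random block, 3325 from Agilent's processed signals, 3605 with the spatial trend removed, 6113 under median centring and 1922 without slide E. Without IL6 arrays 1 and 3, a setting chosen after seeing the data that leaves IL6 array 2 alone, assumed to vary like the other groups, there were 2453. Leaving out 1 array at a time gave 108 to 1749 changed ratios, 1206 to 2052 Treg changes (1911 in all) and 1428 to 1803 T-effector changes (2167 in all). Treg and T-effector changes numbered 3164 and 4164 with slide as a fixed block, 1097 and 1233 with arrays averaged and 1061 and 659 without slide E, and T-effector changes 1052 without IL6 arrays 1 and 3. Of the 804 genes, 799 kept their direction in every setting but median centring, where 161 turned sign and which lifted Stat2 (0.0155), Itgb7 (0.0939), Lef1 (0.0132), Tnfrsf9 (0.38), Tnfrsf1b (0.27), Gpr83 (0.17) and Bcl2 (0.22) above 0. Agilent's processed signals turned 5 of the 804, among them Ppp1r14c, to 0.31 in ratio and -0.54 in T-effector. The causes were not tested.

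For the ratio the array numbers were not taken as pairs, because the deviations of same-numbered arrays correlated at 0.70, -0.04 and -0.15. The deviations of Treg (0.15, 0.25 and 0.49) and T-effector (0.72, 0.71 and 0.62) correlated in every pair, so values with the block stand beside the Treg and T-effector changes it alters. With the replicate number as a block, 86 ratios changed, 47 of them among the 804, beside 1932 Treg and 2410 T-effector changes.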

Other observations

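Some members of the gene lists that the naming rule left out, picked with their values known, passed in both samples but not in ratio. Ahr, the aryl hydrocarbon receptor, rose with TGFb and IL6 relative to IL6 by 3.18 in Treg (limma adjusted p = 1.88e-10) and by 3.33 in T-effector (adjusted p = 1.23e-10). Nt5e, the ectoenzyme CD73, rose by 3.42 (adjusted p = 5.41e-07) and by 4.24 (adjusted p = 2.43e-08). Socs2, a relative of Socs3, rose by 2.54 (adjusted p = 4.78e-06) and by 3.44 (adjusted p = 7.41e-08). Gata3, the Th2 factor, changed by -3.16 (adjusted p = 3.85e-05) and by -3.00 (adjusted p = 7.36e-05), and Il22, a cytokine, by -2.20 (adjusted p = 0.00172) and by -2.68 (adjusted p = 0.000235). S1pr1, the receptor through which T cells leave lymph nodes, rose by 1.52 in Treg (adjusted p = 0.0217) and by 3.19 in T-effector (adjusted p = 1.64e-05), with a ratio difference of -1.67 (adjusted p = 0.059). Without slide E, where IL6 array 2 is the whole IL6 group, the ratio differences of S1pr1 and Il22 passed, at -2.84 (adjusted p = 0.00754) and 2.46 (adjusted p = 0.000743), and their Treg changes did not, at 0.17 (adjusted p = 0.955) and -0.45 (adjusted p = 0.514). The Treg change of S1pr1 also did not pass without slide B (1.26, adjusted p = 0.221).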
